A study of Mus musculus with 4 samples.

Results

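The mitochondrial genome of the mouse is a circle of 16299 bases that carries 37 genes, and all 37 were listed in these RNA-seq tables. They were taken as every gene whose symbol begins with mt-, which gave 13 protein-coding genes, 2 ribosomal RNA (rRNA) genes and 22 transfer RNA (tRNA) genes among the 55203 genes of the tables. The level of a gene was its FPKM (fragments scaled to transcript length and to the mapped fragments of the library), summed over its transcripts. Each of the 37 had 1 transcript, and all estimates carried the status OK. Of these genes, 11 mRNAs and both rRNAs passed the filters for testing (mean of at least 1 FPKM and a transcript of at least 300 nt). mt-Atp8 and mt-Nd4l, at 204 and 297 nt, and every tRNA, at 59 to 75 nt, fell short of the length minimum. They are described without a call.

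The libraries came from gut tissue of wild-type C57BL/6NTac mice, adult males of 8-12 weeks kept free of specific pathogens (SPF), and were made as a bulk reference for imaging by MERFISH. There were 4 libraries: 2 labelled as processed with 4 mM RVC (ribonucleoside vanadyl complex, an inhibitor of ribonucleases) and 2 labelled fresh frozen. All 4 share 1 protocol text, which describes an RVC rinse, and only the label tells how the other 2 were handled. Each library has a batch number of its own, from 1 to 4, so batch and treatment cannot be told apart. The labels do not say whether the libraries of a group came from different mice, and p-values therefore measure only the spread between these samples. Ribosomal RNA was depleted with a Ribo-Erase kit before library preparation.

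Mitochondrial DNA is transcribed as long RNAs from both strands, which are cut mostly at the tRNAs that lie between the other genes. The mRNAs encode core subunits of the respiratory chain and of ATP synthase, while the remaining subunits are encoded in the nucleus. The rRNAs form the mitochondrial ribosome. A poly(A) tail is added to most of the cut mRNAs, and in some it supplies the last bases of the stop codon.

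The layout of the genome sets what can be measured from it, and the stretches below show how closely the genes abut. All are from the GRCm39 genome on the strand the reference lists. Between mt-Rnr2, the large rRNA, and mt-Nd1, a complex I subunit, the 75 bases of the leucine tRNA gene mt-Tl1 (capitals, MT:2661-2765) leave 0 bases on either side.
mt-Rnr2 to mt-Nd1: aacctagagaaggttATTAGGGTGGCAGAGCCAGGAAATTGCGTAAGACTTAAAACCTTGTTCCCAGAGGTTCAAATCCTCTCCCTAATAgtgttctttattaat
mt-Atp8 and mt-Atp6, the subunits of ATP synthase, share 43 bases (capitals, MT:7907-7989), which begin with the start codon of mt-Atp6 and end with the stop codon of mt-Atp8.
mt-Atp8 to mt-Atp6: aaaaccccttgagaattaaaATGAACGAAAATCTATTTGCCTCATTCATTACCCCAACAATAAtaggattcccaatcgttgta
mt-Nd4l and mt-Nd4, both of complex I, share 7 bases (capitals, MT:10147-10193).
mt-Nd4l to mt-Nd4: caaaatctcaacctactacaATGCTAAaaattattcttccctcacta
mt-Nd5 and mt-Nd6 lie on opposite strands and their annotated ends share 14 bases (capitals, MT:13532-13585).
mt-Nd5 to mt-Nd6: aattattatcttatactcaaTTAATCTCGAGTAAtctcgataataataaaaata
Of the 13 mRNAs, 10 end in a complete TAA or TAG in the annotation, and mt-Co3, mt-Nd4 and mt-Cytb do not. mt-Nd6 is the only mRNA encoded on the minus strand. Its RNA holds 28.1% G and 5.97% C, while the G content of the others runs from 5.88% in mt-Atp8 to 16.1% in mt-Co1.

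A stretch of chromosome 1 repeats part of this genome almost letter for letter, which bears on the level of 8 of the 13 mRNAs. A search of GRCm39 with the mitochondrial sequence (blastn, at least 95% identity over at least 100 bases) returned 8 matches outside the mitochondrion. The longest, chr1:24650616-24655269 on the minus strand, copies positions 6390 to 11042 over 4654 aligned bases at 99.936% identity. It differs from the mitochondrial sequence by 2 substitutions, A6393T in mt-Co1 and T9461C in the start codon of mt-Nd3, and by 1 extra base in the copy of the arginine tRNA gene mt-Tr, at position 9820. Positions are counted from 1 at the start of the mitochondrial genome, and the mitochondrial base comes first. The windows below show these 3 sites, with the differing base in capitals, since they are the sites at which the reference sequences differ. Whether the mice of these libraries carry the reference bases there was not tested, so a read need not tell the copies apart at them. The mitochondrial windows are MT:6390-6423, MT:9431-9491 and MT:9791-9850. Those of the copy are chr1:24655236-24655269, chr1:24652168-24652228 and chr1:24651808-24651868, read on the minus strand.
mitochondrial at 6393: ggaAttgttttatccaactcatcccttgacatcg
chromosome 1 copy at 6393: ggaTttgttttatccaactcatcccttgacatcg
mitochondrial at 9461: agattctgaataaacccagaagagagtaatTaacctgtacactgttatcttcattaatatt
chromosome 1 copy at 9461: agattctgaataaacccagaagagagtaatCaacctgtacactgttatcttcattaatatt
mitochondrial at 9820: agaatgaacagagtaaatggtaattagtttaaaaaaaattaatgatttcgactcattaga
chromosome 1 copy at 9820: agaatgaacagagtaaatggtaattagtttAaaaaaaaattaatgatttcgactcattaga

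mt-Co2, mt-Atp8, mt-Atp6, mt-Co3, mt-Nd3 and mt-Nd4l lie wholly inside the copied stretch. mt-Co1 has 483 of its 1545 bases there and mt-Nd4 876 of 1378, while mt-Nd1, mt-Nd2, mt-Nd5, mt-Nd6, mt-Cytb and both rRNAs have 0. Of the windows of 150 bases, the length of 1 read, that fit in each gene, 100% were identical to the copy for mt-Co2, mt-Atp8, mt-Atp6, mt-Co3 and mt-Nd4l. The share was 98.5% for mt-Nd3, 59.2% for mt-Nd4 and 23.6% for mt-Co1. The tables list 7 pseudogenes in the copied stretch, and their FPKM tracked the genes they copy. Gm28437 stood at 1.0015 ± 0.0001 times the FPKM of mt-Co3 (SD over the 4 libraries, n = 4). Gm10925 stood at 0.997 ± 0.00053 times mt-Atp6, Gm28661 at 0.998 ± 0.0089 times mt-Co2, and Gm10222 at 0.986 ± 0.0017 times mt-Nd4l. These ratios were almost the same in every library, although the genes themselves varied up to 1.84-fold. Gm28438 stood at 0.903 ± 0.0068 times mt-Nd3. Gm29216, the copy of the end of mt-Co1, stood at 0.621 ± 0.021 times that gene. The copy of mt-Nd4, Gm28439, varied more, at 0.491 and 0.546 times mt-Nd4 in RVC 1 and 2 and 0.658 and 0.661 times in fresh frozen 1 and 2. mt-Atp8 has no pseudogene of its own in the tables.

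How much of the signal came from each locus cannot be told apart in FPKM, so the levels of these 8 mRNAs are uncertain as deposited. Copies elsewhere had far lower values, with mean ratios of 0.037 for Gm13341 to mt-Co2, 0.021 for Gm13340 to mt-Co1 and 0.00198 for Gm13339 to mt-Nd2, all on chromosome 2. Gm4076 on chromosome 13, a copy of part of mt-Nd5, reached 1.49 FPKM in fresh frozen 2.

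The mRNAs of complex IV and ATP synthase were the most abundant and the complex I mRNAs, other than mt-Nd1, the least. As deposited, the order by mean FPKM over the 4 libraries ran from mt-Atp8 (13559 ± 5747, SD, n = 4) and mt-Co1 (13388 ± 1156) through mt-Co2 (7189 ± 814), mt-Atp6 (6556 ± 1321), mt-Co3 (6503 ± 862) and mt-Cytb (6176 ± 704) to mt-Nd1 (4686 ± 695). The remaining complex I mRNAs followed, with mt-Nd4 at 2482 ± 396, mt-Nd4l at 2406 ± 594, mt-Nd3 at 2018 ± 267, mt-Nd5 at 1806 ± 334, mt-Nd2 at 1562 ± 377 and mt-Nd6 at 1008 ± 397. The order of neighbours held in all 4 libraries for 8 of the 12 adjacent pairs. It turned in 2 libraries for mt-Atp8 and mt-Co1, for mt-Atp6 and mt-Co3 and for mt-Nd4 and mt-Nd4l, and in 1 for mt-Nd4l and mt-Nd3. Among the 46335 genes with a transcript of at least 300 nt, mt-Co1 ranked 5 by mean FPKM and mt-Nd6, the lowest of the 11 tested mRNAs, ranked 57.

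**Figure D1:**
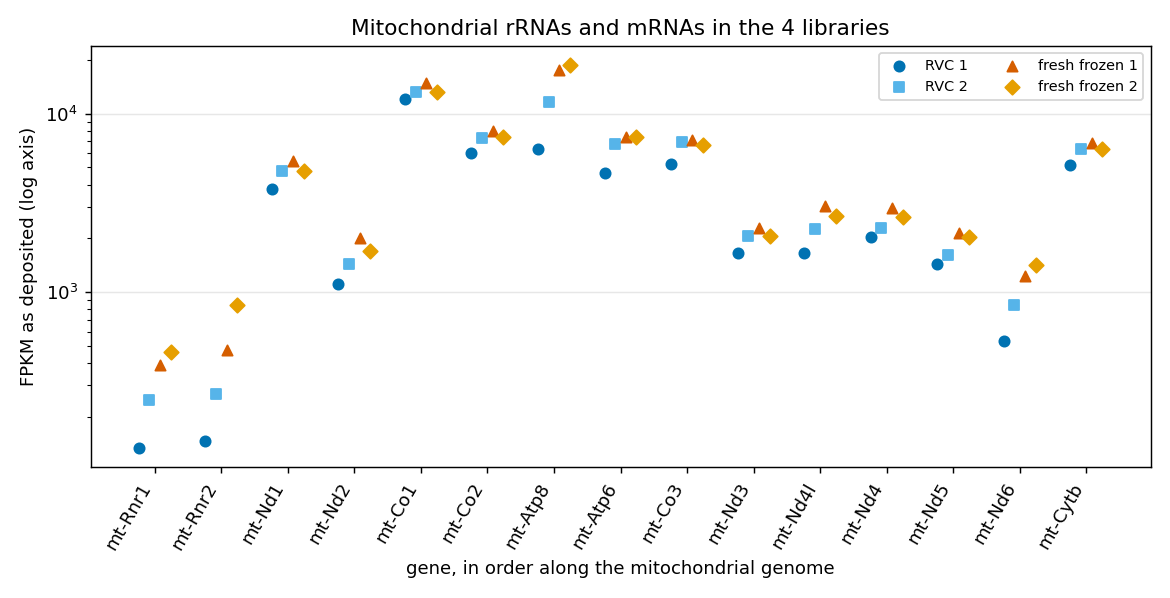
Deposited FPKM (vertical log axis) of the 2 rRNAs and 13 mRNAs, in order along the mitochondrial genome, with 1 point per library and colours for RVC 1, RVC 2, fresh frozen 1 and fresh frozen 2. mt-Co1 and mt-Atp8 stand highest, the rRNAs lowest, and RVC 1 is the lowest library for every gene.

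Summing each copy into its gene, as approximate fragments per base of the mitochondrial gene, moved the complex IV and V mRNAs away from mt-Cytb. The sums averaged 16311 ± 1420 for mt-Co1, 14607 ± 1765 for mt-Co2, 13065 ± 2631 for mt-Atp6 and 13006 ± 1724 for mt-Co3, while mt-Cytb stayed at 6176. mt-Co2, mt-Atp6 and mt-Co3 were thus 2.03, 1.99 and 2.00 times their deposited means. mt-Nd4l, at 4754 ± 1175, then stood above mt-Nd1, and mt-Nd3, at 3825 ± 497, above mt-Nd4, at 3427 ± 668. mt-Atp8, which lies in the copied stretch but has no listed copy to add, went from 1 to 3 in the order. Its new place is therefore not like for like with those of the summed genes. The 3 lowest, mt-Nd5, mt-Nd2 and mt-Nd6, kept their places.

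**Figure D2:**
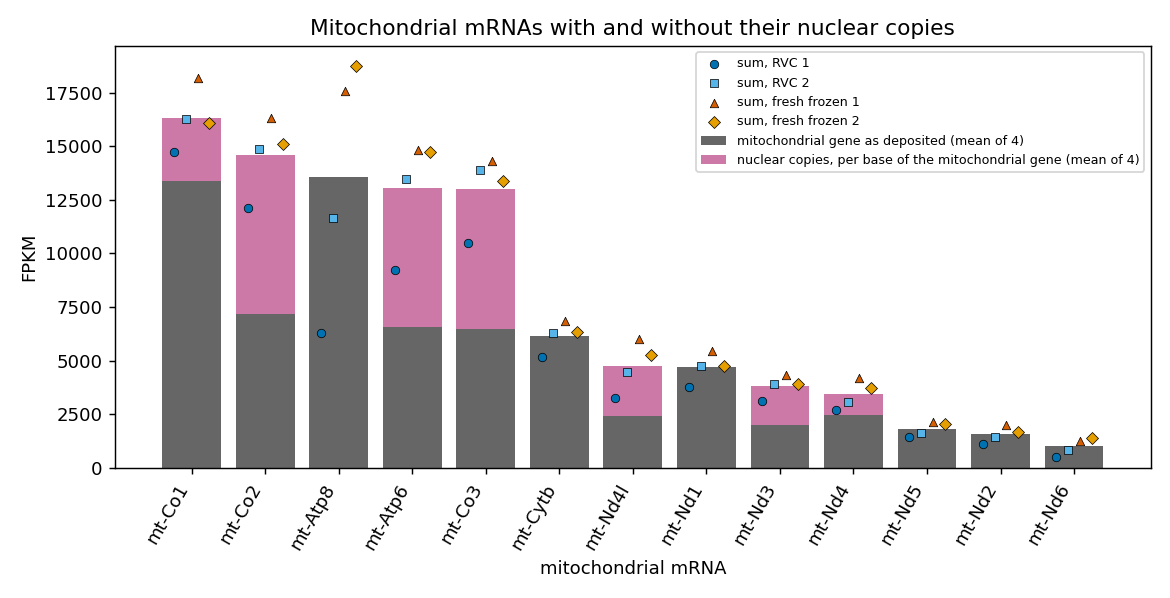
Mean FPKM over the 4 libraries of each mitochondrial mRNA as deposited (grey bars) and of its nuclear copies, counted per base of the mitochondrial gene (pink bars stacked on top), with points for the sum in each library. The bars of mt-Co2, mt-Atp6 and mt-Co3 double, whereas those of mt-Cytb, mt-Nd1 and mt-Nd6 have no pink part.

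The mitochondrial mRNAs together made up 5.41% and 6.42% of the length-weighted FPKM, which is only roughly proportional to fragments, in RVC 1 and 2. In fresh frozen 1 and 2 they made up 7.63% and 7.28%. The fresh-frozen libraries were both higher, and the means were 5.91% ± 0.718 and 7.45% ± 0.250 (SD, n = 2 each), a difference of -1.54 percentage points. An exact two-sided permutation test gave p = 0.3333, the smallest that 2 libraries against 2 allow. With the nuclear copies added, the shares were 7.31%, 8.83%, 10.4% and 9.94% in the same order of libraries. In bulk tissue, fewer mitochondria-rich cells and less RNA per cell cannot be told apart.

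Between RVC and fresh-frozen tissue no mitochondrial gene passed the test (limma on log2(scaled FPKM + 1), two-sided, adjusted p under 0.05). That is 0 of 13, where 0.0363% of all 13771 genes tested passed. All 13 had lower means in RVC on the log2 scale, as did 6748 of the 13771 genes tested. On the scaled values, 11 of the 13 were lower in both RVC libraries than in both fresh-frozen libraries, all but mt-Co1 and mt-Co3, against 26.6% of all genes. On the deposited values mt-Nd1 overlapped too, which left 10. At an unadjusted p under 0.05 there were 5 of 13, all lower in RVC (8.99% of all genes were lower at this level): mt-Rnr1, mt-Rnr2, mt-Nd2, mt-Nd5 and mt-Nd6. The median log2 difference (RVC minus fresh frozen) was -0.26 over the 11 mRNAs and 0.0066 over all genes. It depended on the libraries used: it was -0.096 without RVC 1 and -0.43 without RVC 2. The members are cut from shared precursors, and some share reads with a copy, so they are not independent of each other.

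The rRNAs differed most between the libraries. mt-Rnr1, the RNA of the small mitochondrial ribosomal subunit, had 133 and 249 FPKM in RVC 1 and 2 and 388 and 459.7 in fresh frozen 1 and 2. Both RVC libraries were below both fresh-frozen libraries, by -1.20 on the log2 scale (SE 0.268, limma adjusted p = 0.131). The difference was -0.76 without RVC 1 and -1.65 without RVC 2. mt-Rnr2, the RNA of the large subunit, had 146 and 267 FPKM in RVC 1 and 2 and 471 and 845 in fresh frozen 1 and 2. Here too the groups did not overlap, although fresh frozen 2 was 1.80 times fresh frozen 1. The log2 difference was -1.66 (SE 0.342, limma adjusted p = 0.129), or -1.24 without RVC 1 and -2.09 without RVC 2. Sequencing followed rRNA depletion, and whether its probes cover the mitochondrial rRNAs is not given in the sources used here. Rn18s, the nuclear-encoded 18S rRNA of the cytosolic ribosome, ran the same way, at 564 and 615 FPKM in RVC 1 and 2 and 916 and 1553 in fresh frozen 1 and 2. Its log2 difference was -1.01 (limma adjusted p = 0.138). Residual rRNA after depletion and the amount of rRNA in the tissue cannot be told apart. The ratio of mt-Rnr2 to mt-Rnr1 was 1.09 and 1.07 in RVC 1 and 2, 1.21 in fresh frozen 1 and 1.84 in fresh frozen 2, so the last library stood apart from the other 3.

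mt-Tl1, the tRNA gene between mt-Rnr2 and mt-Nd1, was listed at 0 in 3 libraries and at 6398 FPKM in fresh frozen 2, the library with the highest mt-Rnr2. Its deposited confidence bounds there ran from 0 to 19194 FPKM, so the value is not distinguishable from 0. The other 21 tRNA genes were listed at 0 in every library. They are mt-Tf, mt-Tv, mt-Ti, mt-Tq, mt-Tm, mt-Tw, mt-Ta, mt-Tn, mt-Tc, mt-Ty, mt-Ts1, mt-Td, mt-Tk, mt-Tg, mt-Tr, mt-Th, mt-Ts2, mt-Tl2, mt-Te, mt-Tt and mt-Tp. The deposited upper bounds were above 0 for mt-Ti, mt-Tq, mt-Tw and mt-Ts1, between 0.828 and 1.20 FPKM. Each of those 4 genes overlaps the end of an mRNA or of another tRNA. mt-Ts2 and mt-Tl2 also overlap each other, but their upper bounds were 0 in every library. mt-Tw, for tryptophan, begins inside mt-Nd2, a complex I mRNA (mt-Tw in capitals, MT:4932-5016).
mt-Nd2 to mt-Tw: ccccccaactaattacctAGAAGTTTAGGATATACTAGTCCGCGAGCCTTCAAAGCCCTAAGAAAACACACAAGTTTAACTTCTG
The zeros were not particular to mitochondrial tRNAs. Of 824 other transcripts of 59 to 75 nt in the tables, 0 were above 0 in any library, and the shortest other transcript with a value above 0 was 76 nt long. The tables thus hold no measurement of tRNA abundance.

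mt-Nd6, of complex I, had the largest difference among the tested mRNAs. It encodes a membrane subunit and is the mRNA of the strand opposite to all others. Its level was 535 and 842 FPKM in RVC 1 and 2 and 1236 and 1419.9 in fresh frozen 1 and 2. The groups did not overlap, and the log2 difference was -0.98 (SE 0.224, limma adjusted p = 0.134). It was -0.65 without RVC 1 and -1.30 without RVC 2. Relative to mt-Cytb, its neighbour beyond a tRNA gene, mt-Nd6 stood at 0.103 and 0.134 in RVC 1 and 2 and 0.181 and 0.223 in fresh frozen 1 and 2. Relative to mt-Nd5, which it overlaps, it stood at 0.372, 0.522, 0.579 and 0.697 in the same order. Both ratios were lower in the RVC libraries without overlap. No strand setting is stated for the quantification, so reads from mt-Nd6 and reads antisense to it cannot be told apart.

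mt-Nd1 had 3770.2 and 4763 FPKM in RVC 1 and 2 and 5460.2 and 4751 in fresh frozen 1 and 2. RVC 2 lay within the fresh-frozen range, and the log2 difference was -0.26 (SE 0.209, limma adjusted p = 0.516), or -0.096 without RVC 1 and -0.43 without RVC 2. mt-Nd2 had 1112 and 1443 FPKM in RVC 1 and 2 and 1999.7 and 1695 in fresh frozen 1 and 2. Its groups did not overlap, with a log2 difference of -0.53 (SE 0.182, limma adjusted p = 0.206), or -0.35 without RVC 1 and -0.72 without RVC 2. The ratio of mt-Nd2 to mt-Nd1, which lies before it on the same strand, was 0.295 and 0.303 in RVC 1 and 2 and 0.366 and 0.357 in fresh frozen 1 and 2. mt-Nd5, the longest mRNA at 1824 nt, had 1438 and 1614 FPKM in RVC 1 and 2 and 2137 and 2037 in fresh frozen 1 and 2. The groups were separate here as well, and the log2 difference was -0.45 (SE 0.155, limma adjusted p = 0.209). None of these 3 genes has bases in the chromosome 1 copy.

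The other 3 complex I mRNAs do. mt-Nd3 had 1651 and 2061 FPKM in RVC 1 and 2 and 2292 and 2069 in fresh frozen 1 and 2. RVC 2 and fresh frozen 2 were nearly equal, and the log2 difference was -0.23 (SE 0.176, limma adjusted p = 0.487), or -0.078 without RVC 1 and -0.39 without RVC 2. mt-Nd4 had 2046 and 2300.1 FPKM in RVC 1 and 2 and 2959 and 2623 in fresh frozen 1 and 2, lower in both RVC libraries. Its log2 difference was -0.36 (SE 0.169, limma adjusted p = 0.305), and -0.45 with Gm28439 added (limma adjusted p = 0.258). mt-Nd4l, under the length minimum, had 1651 and 2266.5 FPKM in RVC 1 and 2 and 3038 and 2668 in fresh frozen 1 and 2. Its ratio to mt-Nd4 was 0.807 in RVC 1 and 0.985, 1.03 and 1.02 in the other 3 libraries. With the copies of both genes added, the ratio was 1.22 and 1.44 in RVC 1 and 2 and 1.43 and 1.42 in fresh frozen 1 and 2.

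The mRNAs of complexes III and IV were the most even. mt-Cytb, the complex III subunit cytochrome b, had 5185 and 6309 FPKM in RVC 1 and 2 and 6847 and 6361 in fresh frozen 1 and 2. Only RVC 1 stood clear of the rest, and the log2 difference was -0.20 (SE 0.212, limma adjusted p = 0.622), or -0.064 without RVC 1 and -0.34 without RVC 2. mt-Co1, the catalytic subunit of complex IV, had 12159 and 13287 FPKM in RVC 1 and 2 and 14949 and 13157 in fresh frozen 1 and 2, so the groups overlapped. Its log2 difference was -0.14 (SE 0.248, limma adjusted p = 0.788), or -0.077 without RVC 1, -0.060 without fresh frozen 1 and -0.21 without fresh frozen 2. mt-Co2, which binds cytochrome c, had 6045 and 7324 FPKM in RVC 1 and 2 and 7969 and 7419 in fresh frozen 1 and 2. The RVC libraries were lower by a narrow margin, with a log2 difference of -0.20 (SE 0.219, limma adjusted p = 0.629), or -0.069 without RVC 1 and -0.34 without RVC 2. mt-Co3 had 5242 and 6945 FPKM in RVC 1 and 2 and 7146 and 6677 in fresh frozen 1 and 2. The groups overlapped, and its log2 difference of -0.19 (SE 0.227, limma adjusted p = 0.668) became 0.0086 without RVC 1 and -0.39 without RVC 2. As deposited, mt-Co3 kept a nearly fixed ratio to mt-Cytb, 1.05 ± 0.037 over the 4 libraries (SD, n = 4). The size of this ratio depends on the chromosome 1 copy, which covers mt-Co3 but not mt-Cytb. With Gm28437 added, mt-Co3 averaged 13006 FPKM beside 6176 for mt-Cytb.

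Of the ATP synthase mRNAs, mt-Atp8 varied 2.97-fold between libraries and mt-Atp6 1.61-fold, although they share 43 bases and are known to be carried on 1 RNA. mt-Atp6, the proton channel subunit, had 4631 and 6753 FPKM in RVC 1 and 2 and 7443 and 7395 in fresh frozen 1 and 2. Both RVC libraries were lower, with a log2 difference of -0.40 (SE 0.245, limma adjusted p = 0.398), which was -0.13 without RVC 1 and -0.67 without RVC 2. mt-Atp8, a small membrane subunit, had 6303 and 11642 FPKM in RVC 1 and 2 and 17553 and 18737 in fresh frozen 1 and 2. Its fresh-frozen mean was 2.02 times the RVC mean, with no overlap. The ratio of mt-Atp8 to mt-Atp6, as deposited, was 1.36 and 1.72 in RVC 1 and 2 and 2.36 and 2.53 in fresh frozen 1 and 2. With Gm10925 added, mt-Atp6 stood at 9230 and 13464.5 FPKM in RVC 1 and 2 and 14831 and 14735 in fresh frozen 1 and 2. mt-Atp8 lies wholly inside the copied stretch, but no listed copy of it could be added. Its deposited level was below this sum in both RVC libraries and above it in both fresh-frozen libraries. That comparison is not like for like, since only mt-Atp6 gained the signal of a copy, and it does not settle which gene was higher. A transcript of 204 nt has few positions for a fragment, and its FPKM depends on the fragment lengths of a library, which are not given in the sources used here. With no length minimum, mt-Atp8 had a log2 difference of -1.08 (limma adjusted p = 0.305) and mt-Nd4l one of -0.56 (limma adjusted p = 0.330).

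**Figure D3:**
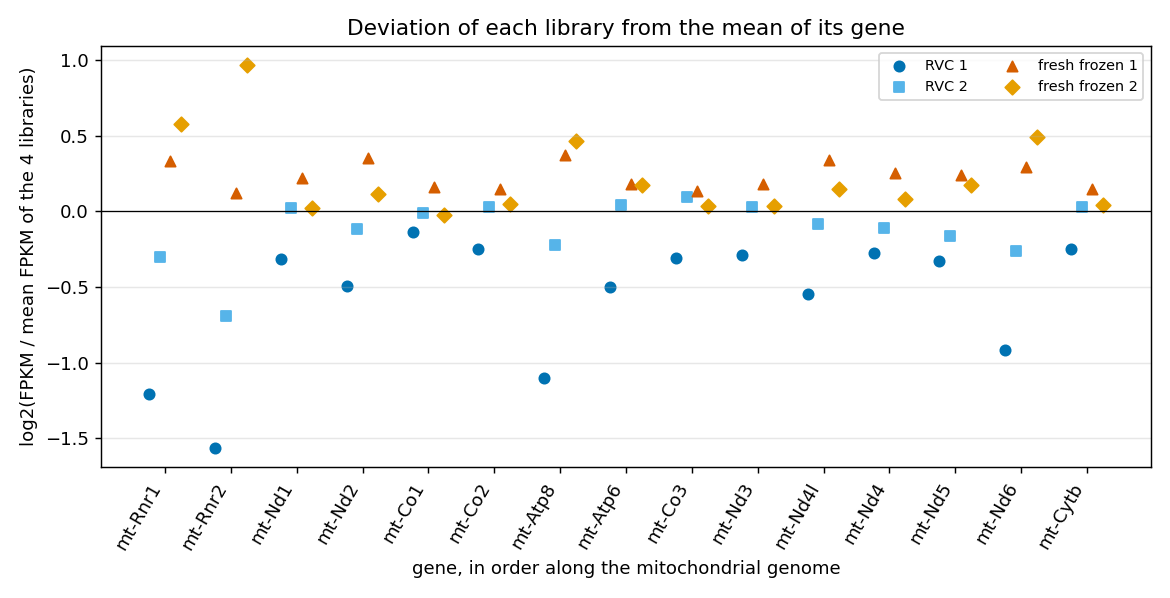
Log2 of the FPKM in each library over the mean of the 4 libraries (vertical axis), for the rRNAs and mRNAs in order along the mitochondrial genome. RVC 1 lies lowest for every gene, and the spread is widest for mt-Rnr2, mt-Rnr1, mt-Atp8 and mt-Nd6.

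The RVC libraries differed from each other by about as much as the groups did. On scaled values, RVC 2 was higher than RVC 1 for 13 of 13 mRNAs, with a median log2 difference of 0.31 over the 11 tested. Fresh frozen 2 was below fresh frozen 1 for most, with a median of -0.076. RVC 2 differed from fresh frozen 2 by a median of only 0.033, with 9 of 11 mRNAs higher in fresh frozen 2. In each other pair across the groups, 11 of 11 mRNAs were higher in the fresh-frozen library. The median was 0.15 between RVC 2 and fresh frozen 1. It was 0.36 between RVC 1 and fresh frozen 2, and 0.51 between RVC 1 and fresh frozen 1. The confidence bounds deposited with the FPKM lay 0.441% to 5.03% to either side for the mRNAs, and those of mt-Nd1 in RVC 2 (4763 FPKM) and fresh frozen 2 (4751 FPKM) overlap.

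**Figure D4:**
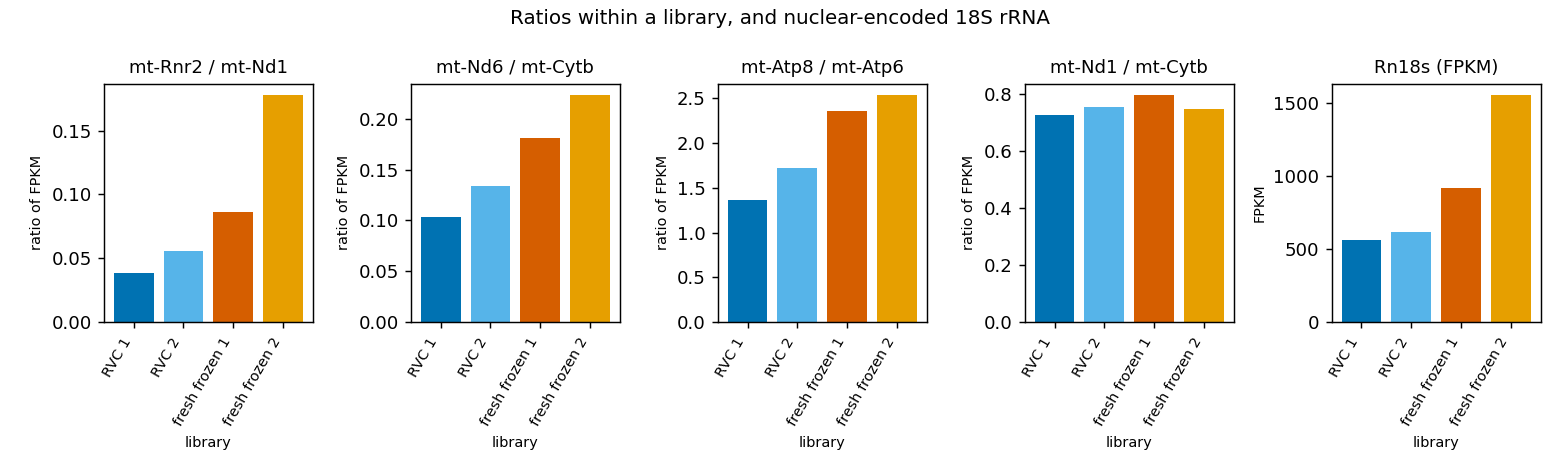
Ratio of FPKM within each library for 4 pairs of mitochondrial genes, and the FPKM of Rn18s (vertical axes from 0), with 1 bar per library. mt-Rnr2 to mt-Nd1 runs from 0.0387 in RVC 1 to 0.178 in fresh frozen 2 and mt-Nd6 to mt-Cytb from 0.103 to 0.223, whereas mt-Nd1 to mt-Cytb stays between 0.727 and 0.797.

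The nuclear-encoded partners of these subunits were measured in the same libraries. Of 77 tested nuclear subunits of complexes I to V, 0 passed at adjusted p under 0.05 (limma), 1 was lower and 5 higher at an unadjusted p under 0.05, and 12 were lower and 30 higher without overlap. Among all genes 8.99% were lower and 9.38% higher at that unadjusted p, and 26.6% were lower and 26.5% higher without overlap. Their median log2 difference was 0.043, beside -0.26 for the mitochondrial mRNAs. The nuclear subunits had a median level of 149 FPKM, and the highest, Cox6c of complex IV, had 1034 FPKM, just above the mean of mt-Nd6.

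At an unadjusted p under 0.05, 8.99% of all genes were lower and 9.38% higher. By complex, the nuclear complex I list had 36 tested genes, 0 lower and 3 higher at that p, and a median log2 difference of 0.040. Ndufb2 (0.33) and Ndufa11 (0.34) had the smallest p. Complex II had 4 genes, 0 of them at that p, and a median of 0.0030, with Sdhd at -0.21 and Sdhb at 0.094. Complex III had 9 genes, again 0, with a median of 0.058, and Uqcr11 and Uqcrq stood at 0.22 and 0.21. Complex IV had 11 genes, 0 lower and 2 higher, namely Cox7a1 (0.45) and Cox8a (0.31), and a median of 0.16. Complex V had 17 genes, 1 lower (Atp5pb, -0.26) and 0 higher, and a median of 0.010, with Atp5d at 0.23. No gene named here or in the next paragraph passed the limma test after adjustment.

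The lists of genes that act on mitochondrial DNA and RNA had medians below 0. Of 15 genes of DNA maintenance and transcription, 2 were lower and 0 higher at an unadjusted p under 0.05, and the median log2 difference was -0.12. Tfb2m, a transcription factor that opens the promoter, stood at -0.61 (SE 0.167, limma adjusted p = 0.158). Tfam, which packages the DNA and starts transcription, stood at -0.34 (SE 0.113, limma adjusted p = 0.198). Of 27 genes of mitochondrial RNA processing and stability, 8 were lower and 1 higher at that p, and 15 were lower without overlap, with a median of -0.18. Over all genes, 8.99% were lower and 9.38% higher at that p, and 26.6% were lower without overlap. Pnpt1, a nuclease of the RNA degradosome, stood at -0.66 (limma adjusted p = 0.134) and Trmt10c, a subunit of the enzyme that cuts the 5′ ends of tRNAs, at -0.59 (limma adjusted p = 0.135). Of 15 genes of mitochondrial mass and biogenesis, 2 were lower and 0 higher: the matrix chaperones Hspa9 (-0.40) and Hspd1 (-0.43). Their median was 0.037.

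Markers of several cell types were also uneven between the groups. The summed FPKM of 10 smooth muscle markers was 1193 and 1757 in RVC 1 and 2 and 747 and 798 in fresh frozen 1 and 2, and 10 of 10 were higher in RVC at an unadjusted p under 0.05 (Des 0.88, Cnn1 0.88), where 9.38% of all genes were higher and 8.99% lower. The same held for 6 of 6 endothelial (Pecam1 0.69, Cdh5 0.71), 3 of 4 plasma cell (Igha 1.49, Mzb1 0.62), 4 of 7 macrophage (C1qa 0.67, C1qc 0.72) and 3 of 8 absorptive colonocyte markers (Ceacam20 0.50, Slc37a2 0.45). Of 5 stem and proliferation markers 2 were lower (Mki67 -0.62, Top2a -0.56), of 7 goblet markers 1 was lower (Agr2 -0.36, beside Tff3 at 0.21), and of 6 fibroblast and 5 enteric neuron and glia markers 0 stood at that p in either direction (S100b 0.27). In each of these lists 0 genes passed after adjustment with limma, and 0 markers were at 0 in all libraries. The part of cell composition in the mitochondrial values was not tested. The sources disagree on the tissue: the labels read ileum and the protocol distal colon. Colon segment markers summed to 3911 to 5540 FPKM per library (Car4 0.59, Car1 0.11), and ileum markers to 5.37 to 7.22. Of the 6 ileum markers, Fabp6 stood at 2.70 to 3.96 FPKM and Slc10a2 at 2.33 to 3.07, while 2 were at 0 in every library.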

How the data were processed

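RNA-seq of 4 mouse gut libraries was analysed, 2 labelled RVC and 2 fresh frozen. Per the submitters' processing notes, the authors used TopHat2 2.1.1 and Cufflinks 2.2.1 with GRCm39; an annotation release and strand setting are not given in the sources used here. Each deposited table gave FPKM by transcript, confidence bounds and a coverage signal, per the file headers. These are not counts, so the depth is unknown. FPKM divides by transcript length, is unstable for short transcripts, and shares reads between near-identical genes.

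Gene FPKM was the sum over transcripts, scaled by median ratio (factors 0.992 to 1.01). limma 3.58.1 (R 4.3.3) was run on log2(scaled FPKM + 1) over all 13771 genes with a mean of at least 1 FPKM, a transcript of at least 300 nt and status OK, with a mean-variance trend, no covariate and Benjamini-Hochberg adjustment at 0.05. The log2 differences are on that scale with a pseudocount of 1. Shares were compared by an exact permutation test. Nuclear copies were found with blastn 2.17.0. A sum over copies weighted each FPKM by transcript length and divided by the length of the mitochondrial gene. Gene types came from GENCODE vM39. Ratios within a library are descriptions with no test. Further software was pandas 2.3.3, scipy 1.17.1 and matplotlib 3.10.9.

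The members and lists were chosen with earlier results of these data known. All mitochondrial genes are named. From each list, genes past the threshold were to be named or, with none, the 2 non-overlapping genes with the smallest unadjusted p; only 1 such gene was found for the ileum and the neuron and glia lists, and 0 for fibroblasts. Cox4i1 and Atp5if1 had no match by symbol in the tables. Alternatives were other pseudocounts, scalings and filters, no trend, a block on sample number, each library left out and, added after seeing the data, nuclear copies summed in and the complexes taken apart.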

Additional observations from a re-analysis of the deposited data

How the results depend on the processing

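No mitochondrial call existed to be lost, and of 195 values of the 13 tested genes under the alternatives, 186 kept their direction and side of the threshold, 8 came below an adjusted p of 0.05 (limma) and 1 reversed, mt-Co3, at 0.0086 without RVC 1 (and -0.39 without RVC 2). Scaling to the summed FPKM of nuclear transcripts shifted the median of all genes from 0.0066 to -0.17. It moved the median of the mitochondrial mRNAs from -0.26 to -0.48, or from -0.27 to -0.30 relative to all genes, and the number of genes called from 5 (2 higher, 3 lower) to 471 (28 higher, 443 lower). Under it limma's adjusted p was 0.0456 for both mt-Rnr1 and mt-Rnr2, 0.0475 for mt-Nd2 and 0.0433 for mt-Nd5 and mt-Nd6, within ranges over all alternatives of 0.0184 to 0.408, 0.00283 to 0.402, 0.0475 to 0.691, 0.0433 to 0.674 and 0.0433 to 0.466. The count over all genes was 14 with a minimum mean of 5 FPKM, 0 with no filter on low values (3531 genes at an unadjusted p under 0.05) and 0 with no trend (2461 at that p). Leaving out 1 library gave 14 (without RVC 2), 23 (fresh frozen 1), 25 (fresh frozen 2) and 30 (RVC 1) calls, and the single library of an arm is then assumed to vary like the other group. Without RVC 2, limma's adjusted p for mt-Rnr1 was 0.0444. The median over the mRNAs ran from -0.43 to -0.096 across these fits, and was -0.36 with no length minimum (13 mRNAs), -0.40 over the 6 complex I mRNAs, -0.20 over the other 5 and -0.25 without mt-Nd6. The difference in the share of mitochondrial mRNAs ran from -1.48 to -3.09 percentage points by definition of the share, with and without weighting by length, and from -2.05 to -1.03 with 1 library left out. A replicate block on sample number gave 112 calls over all genes, and limma's adjusted p was then 0.0184 for mt-Rnr1 and 0.00283 for mt-Rnr2. The labels do not tie equal numbers to a shared mouse or batch, the differences between libraries 1 and 2 of the groups correlated at r = -0.13 over 13771 genes, and the numbers are therefore treated as names.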
